A study of Mus musculus with 24 samples.

Results

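Rpl28, Capns1, Tbcb, Alkbh6, Zfp420, Trim12c and Slc1a5 are 7 protein-coding genes of mouse chromosome 7, taken by name out of 38019 gene symbols measured in limb buds with a deletion of U11. They were chosen by their mutant against WT differences in these same libraries, so those differences are given below as a description, with standard errors and no test. The files hold 2750 other symbols of chromosome 7. All 7 genes passed the filter on low values (1 rescaled TPM or more in 3 or more of the libraries fitted together) at both stages.

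The data are total RNA profiles of mouse limb buds in 24 libraries, 8 groups of 3. The mutant groups are E11.5 hindlimb (HL), E11.5 forelimb (FL), E10.5 HL and E10.5 FL buds of genotype U11flx/flx::Prrx1-Cre+, and each has a group of the same stage and limb with genotype U11flx/flx::Prrx1-Cre-, called WT in the labels. Both genotypes therefore carry the floxed U11 alleles, and both are of strain C57/Bl6. Prrx1-Cre is active in limb mesenchyme, so ectoderm, vessels and blood of a mutant bud keep U11. The labels do not say whether a library is 1 embryo or a pool, or whether FL and HL libraries came from the same embryos, and p-values therefore measure only the spread between these libraries. A bud is a mixture of cells, and fewer cells of a type and less RNA per cell cannot be told apart.

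U11 is the small nuclear RNA that recognises the 5′ splice site of minor introns, a rare intron class removed by its own spliceosome. Its gene, Rnu11, lies on chromosome 4 (GRCm38, 132270080 to 132270213, minus strand), apart from the 7 genes. The 7 genes share a chromosome and no single pathway. Rpl28 encodes a protein of the large ribosomal subunit. Tbcb encodes a cofactor that helps fold alpha-tubulin, and Capns1 the small regulatory subunit shared by the calcium-activated proteases calpain 1 and calpain 2. Alkbh6 is a homolog of the AlkB dioxygenases, Zfp420 a KRAB zinc finger gene, Trim12c a mouse relative of Trim5 from a cluster of antiviral Trim genes, and Slc1a5 the transporter ASCT2, which carries glutamine and other neutral amino acids.

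In GRCm38 coordinates of GENCODE M21, Rpl28 lies at 4792874 to 4795066 of chromosome 7 on the plus strand and Slc1a5 at 16781340 to 16798274 on the plus strand. A group of 4 genes follows within a short stretch, with Zfp420 at 29859979 to 29877292 (plus), Capns1 at 30186936 to 30198811 (minus), Tbcb at 30224131 to 30232272 (minus) and Alkbh6 at 30308717 to 30314304 (plus). Trim12c lies far from the others, at 104338754 to 104353362 on the minus strand. Rpl28 overlaps Ube2s by 521 bases on the opposite strand, Tbcb overlaps Polr2i by 325 bases on the opposite strand, and Capns1 overlaps the antisense gene Gm26810 by 4858 bases. Library preparation kept strand, but the strand counted is not given in the sources used here.

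The promoters of Rpl28 and of the neighbours Capns1, Tbcb and Alkbh6 are shown, the first because Rpl28 differed most between genotypes and the others because they are neighbours that were all lower in mutants. Each is 300 bases from RefSeq (GRCm38.p6), 250 before to 50 after the start of transcription, written 5′ to 3′ on the strand of the gene. They lie at chr7:4792715-4793014 on the plus strand (Rpl28), chr7:30195104-30195403 on the minus strand (Capns1), chr7:30231342-30231641 on the minus strand (Tbcb) and chr7:30308503-30308802 on the plus strand (Alkbh6). Capitals mark every match, on either strand, to the GC box (GGGCGG), the CCAAT box, the ETS motif (letters CCGGAAG), the TATA box (letters TATAAA) or the NRF1 motif, and matches that overlap are joined.
Rpl28: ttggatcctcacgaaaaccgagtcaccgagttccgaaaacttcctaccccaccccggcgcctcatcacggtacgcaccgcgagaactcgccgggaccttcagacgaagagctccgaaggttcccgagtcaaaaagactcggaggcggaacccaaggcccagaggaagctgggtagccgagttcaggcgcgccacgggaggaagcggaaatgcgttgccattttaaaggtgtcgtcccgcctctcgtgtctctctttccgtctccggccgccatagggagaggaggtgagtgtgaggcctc
Capns1: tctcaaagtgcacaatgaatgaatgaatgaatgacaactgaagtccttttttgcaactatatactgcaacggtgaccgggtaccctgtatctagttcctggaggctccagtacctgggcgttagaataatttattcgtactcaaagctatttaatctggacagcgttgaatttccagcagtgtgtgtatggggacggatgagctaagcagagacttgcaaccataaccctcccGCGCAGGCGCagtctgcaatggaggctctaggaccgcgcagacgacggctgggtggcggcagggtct
Tbcb: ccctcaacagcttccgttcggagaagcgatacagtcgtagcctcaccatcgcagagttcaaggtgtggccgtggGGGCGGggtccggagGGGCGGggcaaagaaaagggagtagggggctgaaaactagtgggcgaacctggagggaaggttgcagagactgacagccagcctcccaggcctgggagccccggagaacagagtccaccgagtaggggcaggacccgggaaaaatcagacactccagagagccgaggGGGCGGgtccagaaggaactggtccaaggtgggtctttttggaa
Alkbh6: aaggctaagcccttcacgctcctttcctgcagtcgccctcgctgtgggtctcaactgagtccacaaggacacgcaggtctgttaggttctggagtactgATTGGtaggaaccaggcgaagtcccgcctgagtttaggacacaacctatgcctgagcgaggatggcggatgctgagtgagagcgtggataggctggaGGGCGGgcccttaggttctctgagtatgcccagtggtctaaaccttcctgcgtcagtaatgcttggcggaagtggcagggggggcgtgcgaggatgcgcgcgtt
The Capns1 promoter held 1 match to the NRF1 motif, which was found in 4.6% of 32851 mouse promoters of the same length. Tbcb held 3 GC boxes and Alkbh6 held 1, and a GC box occurred in 35.7% of promoters. Alkbh6 also held 1 CCAAT match, which occurred in 37.4%. The ETS letters occurred in 8.86% of promoters and the TATA letters in 13.6%, and neither was in any of the windows shown. None of the motifs searched was in the Rpl28 window. RefSeq's table held a promoter for 6 of the 7 genes, and Slc1a5 is only named. GC content was 60.7% in Rpl28, 61.7% in Tbcb and 58.7% in Alkbh6, beside a median of 52.7% over all promoters, and only Capns1 of the windows shown lay below that median.

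The deletion was checked on Rnu11 itself. Rescaled TPM are the deposited TPM, a measure of transcripts per length, after each library was brought to one median over 3518 genes with at least 5 TPM in all 24 libraries. On that scale Rnu11 averaged 390.2 ± 46.3 in E11.5 mutant HL and 1544 ± 586 in E11.5 WT HL, and 174.8 ± 54.5 in E11.5 mutant FL and 1295 ± 45.8 in E11.5 WT FL (SD, n = 3 each). At E10.5 it averaged 203.1 ± 55.9 in mutant HL and 565.2 ± 145 in WT HL, and 244.9 ± 208 in mutant FL and 666.9 ± 406 in WT FL (SD, n = 3 each). The groups did not overlap in 3 of the 4 comparisons, and in E10.5 FL the mutant libraries (94.2 to 482.2) overlapped the WT libraries (250.8 to 1063).

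Some libraries and scales stood apart and touch several results. Xist, the RNA of the inactive X chromosome, was at 5 TPM or more in 6 mutant libraries and in no WT library, and the Xist-positive libraries were number 3 of each E11.5 mutant group and numbers 1 and 3 of each E10.5 mutant group. In all 4 E10.5 groups library 3 differed from libraries 1 and 2 in certain genes, and 14 of 11771 genes exceeded 2-fold in every group, among them Rpl28, Shh, Hoxa13, Hoxd12 and Hoxd13. On the deposited scale the median gene differed between mutant and WT by -0.10 (log2) in E11.5 HL, 0.40 for E11.5 FL, 0.10 for E10.5 HL, and -0.14 for E10.5 FL, and after rescaling by -0.03, -0.02, 0.01 and 0.02 in that order. Tbx5, the forelimb gene, was at 1.81 to 10.1 rescaled TPM in FL libraries and at most 0.377 in HL libraries, matching the limb labels. After rescaling, limma called 2 of 10978 genes in E11.5 HL (0.0182%), 192 in E11.5 FL (1.75%), 1 of 11771 in E10.5 HL (0.0085%) and 3 in E10.5 FL (0.0255%). Genes at an unadjusted p under 0.05 numbered 659, 2494, 231 and 620 in that order. The E11.5 FL calls were 52 higher and 140 lower, and on the deposited scale 3691 higher and 42 lower, so directions there depend on the scale.

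In mutant buds at E11.5, 6 of the 7 genes were lower and Slc1a5 was higher than in WT, in both limbs and with no overlap of libraries. In E11.5 HL, 8.39% of 10978 genes tested had all mutant libraries below all WT libraries and 3.18% had them above. In E11.5 FL the shares were 14.2% and 11.7%. In both limbs at once 0.865% lay below and 0.155% above. On the deposited scale the E11.5 HL separation held for all 7 genes, whereas in E11.5 FL it held for Rpl28 and Slc1a5 and the libraries of the other 5 overlapped. The E11.5 FL log2 differences on that scale were -2.09 (Rpl28), -0.53 (Capns1), -0.25 (Tbcb), 0.07 (Alkbh6), -0.02 (Zfp420), -0.21 (Trim12c) and 1.02 (Slc1a5), against a median gene at 0.40. At E10.5 the mutant libraries lay below the WT libraries in 3 genes per limb: Capns1, Tbcb and Alkbh6 in HL, where 3.33% of 11771 genes did so, and Capns1, Tbcb and Zfp420 in FL, where 4.87% did. None of the 7 had all mutant libraries above all WT libraries at E10.5, where 2.36% of genes did in HL, 5.51% in FL and 0.0595% in both. On the deposited scale 1 of the 7 lay apart in E10.5 HL and 2 in E10.5 FL. These shares are the background of the contrast that chose the genes, and nothing is read from the comparison. Summed cell type markers also lay apart between genotypes in some groups. In E11.5 FL 5 endothelial markers summed to 13.95 to 20.2 rescaled TPM in mutants and 10.25 to 13.2 in WT, 5 surface ectoderm markers to 34.98 to 41.8 in mutants and 43.1 to 62.7 in WT, and 4 neural markers to 2.38 to 2.92 in mutants and 2.96 to 3.67 in WT. In E11.5 HL 5 limb mesenchyme markers summed to 101.2 to 120.1 in mutants and 120.8 to 122.2 in WT, and in E10.5 HL the neural markers summed to 1.199 to 1.48 in mutants and 1.99 to 2.47 in WT. Their part in the values of the 7 genes was not tested. Across both limbs at E10.5, Capns1 alone of the 7 kept every mutant library below every WT library, as did 0.127% of all genes.

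**Figure D1:**
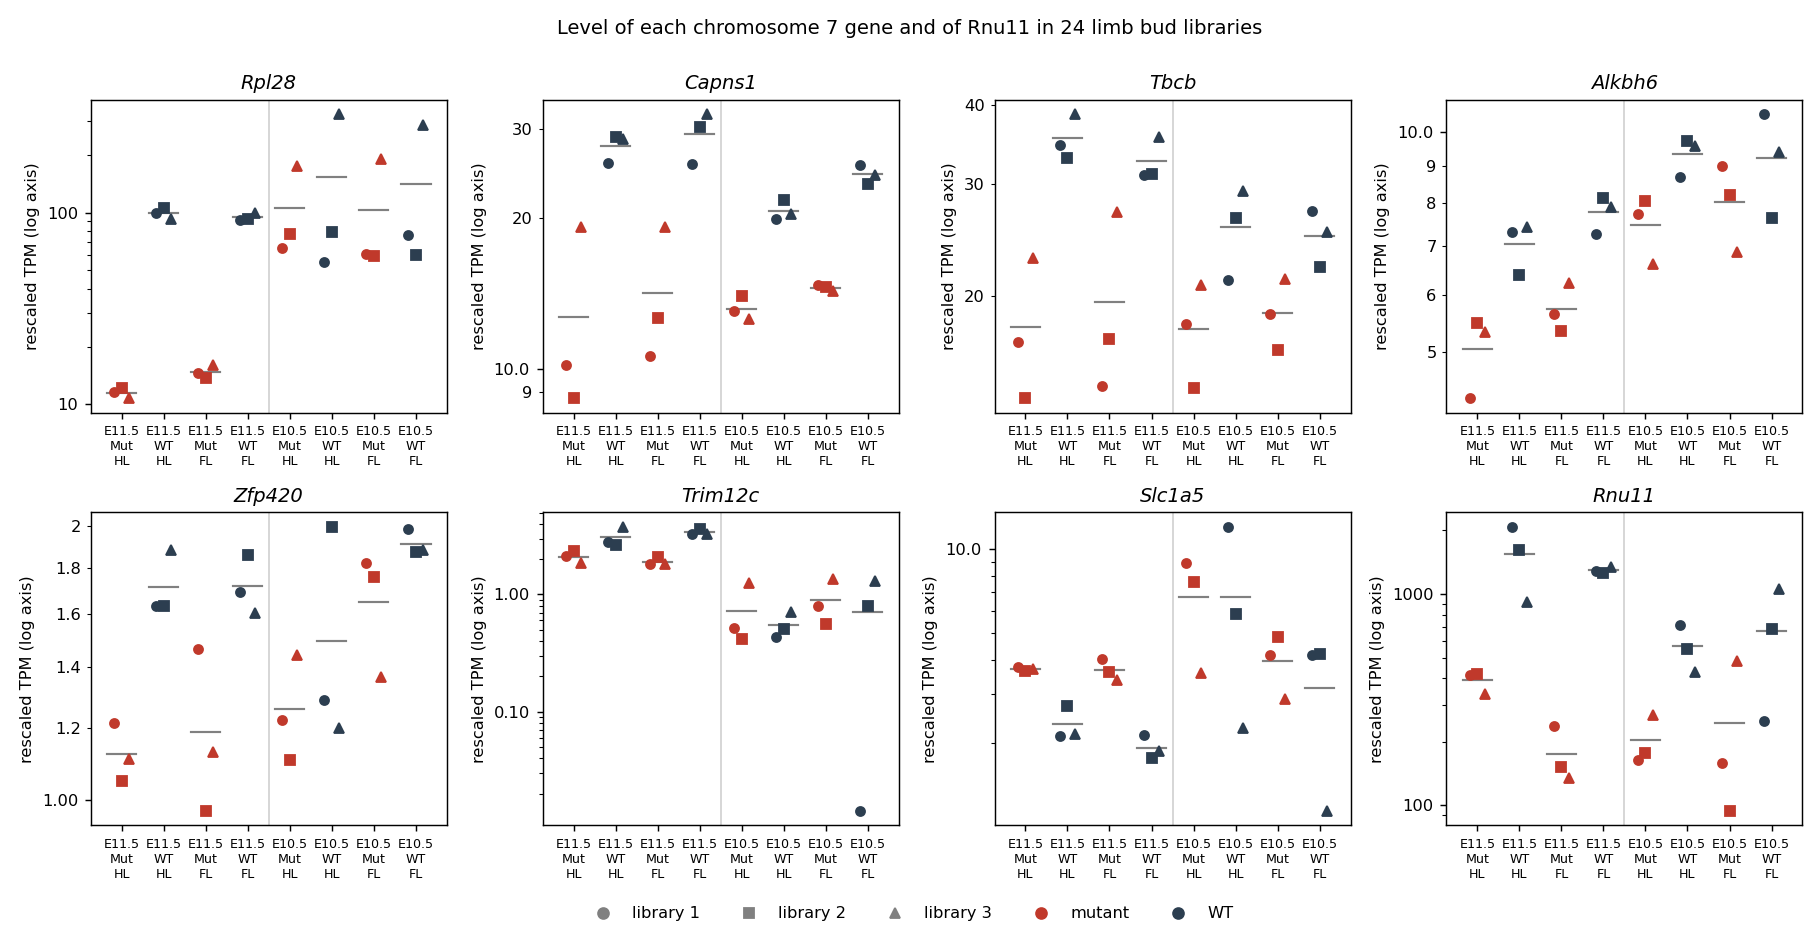
Level of each of the 7 genes and of Rnu11 in every library (rescaled TPM, log axis), by stage, limb and genotype. Circles, squares and triangles are libraries 1, 2 and 3, grey lines are group means, mutant groups stand left of their WT group; the E10.5 triangles of Rpl28 (174 to 328) stand above the other E10.5 libraries.

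Rpl28 showed the largest difference of the 7. Its rescaled TPM were 11.6, 12.1 and 10.7 in E11.5 mutant HL and 99.7, 105.3 and 93.2 in E11.5 WT HL. In E11.5 FL they were 14.6, 13.6 and 16.0 in mutant buds and 91.4, 93.2 and 99.2 in WT buds. Mutant levels were 11.54% (HL) and 15.6% (FL) of WT levels, and the spread within each group was small beside the gap. The fitted log2 differences, mutant minus WT, were -2.98 ± 0.08 in HL and -2.59 ± 0.08 in FL (SE); log2 differences between genotypes or limbs are on log2(rescaled TPM + 1), with the 12 libraries of a stage rescaled among themselves. They were the 8th (HL) and 10th (FL) lowest of 10978 genes.

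At E10.5 the same gene split by library number and not by genotype. Rpl28 was at 65.1, 77.8 and 174 rescaled TPM in mutant HL and at 55.3, 79.3 and 328 in WT HL. In FL it was at 60.6, 59.7 and 191 in mutant buds and at 76.1, 60.3 and 287 in WT buds. Library 3 of each group was the high one, at 2.44 to 4.87 times the mean of libraries 1 and 2, and mutant and WT overlapped in both limbs. The fitted differences were -0.22 ± 0.76 in HL and -0.31 ± 0.76 in FL (SE), and without the libraries numbered 3 they were 0.11 and -0.19.

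The other cytosolic ribosomal protein genes did not follow Rpl28. Of 82 others tested, 0 passed the threshold (limma, adjusted p under 0.05) in any of the 4 mutant against WT comparisons, while 2, 2, 0 and 8 were at an unadjusted p under 0.05 in E11.5 HL, E11.5 FL, E10.5 HL and E10.5 FL. At E11.5 their log2 differences ran from -0.07 (Rps3a1) to 0.46 (Rps27l) in HL, with a median of 0.18, and from -0.66 (Rpl22l1) to 0.23 (Rpl8) in FL, with a median of -0.07. By TPM, a measure per transcript length, Rpl28 ranked 83rd of 86 ribosomal protein genes in E11.5 mutant HL and 62nd in E11.5 WT HL, and 83rd in E11.5 mutant FL and 66th in E11.5 WT FL. Rpl41, the highest of them, averaged 2142 ± 137 in E11.5 mutant HL and 1854 ± 307 in E11.5 WT HL (SD, n = 3 each).

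**Figure D2:**
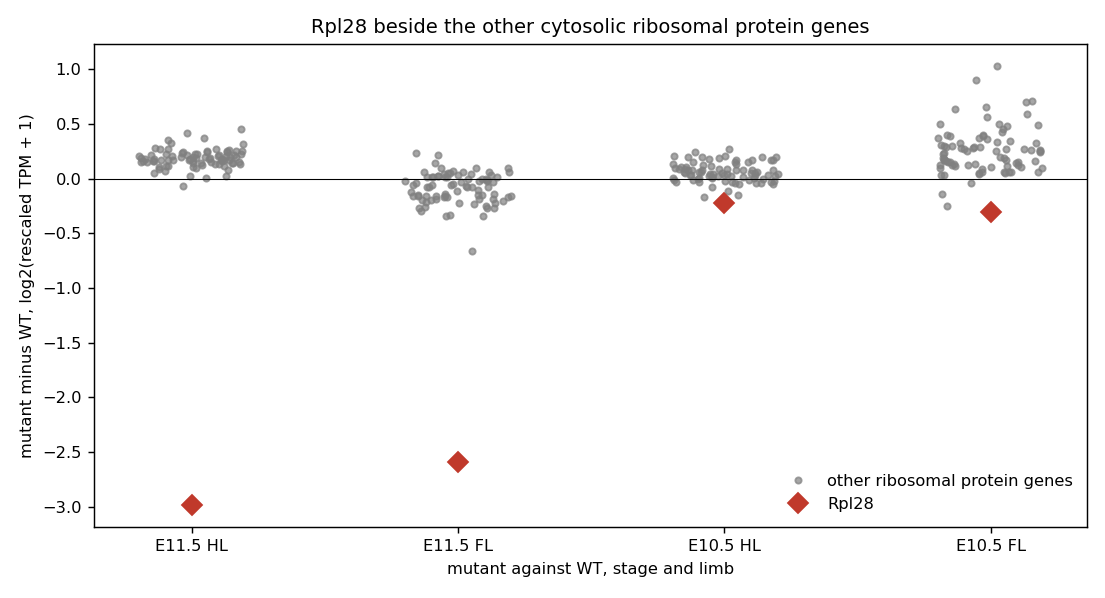
Mutant minus WT difference of Rpl28 (diamonds) and of the 82 other ribosomal protein genes tested (dots, spread sideways for legibility), on log2(rescaled TPM + 1), for each stage and limb. The E11.5 diamonds, at -2.98 and -2.59, lie below every dot; at E10.5 they lie at -0.22 and -0.31, just under the lowest dots at -0.17 and -0.25.

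Part of the Rpl28 sequence is not its own. Of its annotated transcripts' 50-base words, matched on either strand, 27.4% also occur in transcripts of other genes. In the pseudogene Rpl28-ps1 20.0% occur, so reads could be shared between them. The 27.4% can include the overlap with Ube2s on the opposite strand. Ube2s, the ubiquitin-conjugating enzyme gene that overlaps Rpl28 on the opposite strand, averaged 150.1 ± 12.6 rescaled TPM in E11.5 mutant HL and 153.9 ± 11.8 in E11.5 WT HL (SD, n = 3 each). In E11.5 FL it averaged 163.1 ± 6.82 in mutant and 129.3 ± 2.95 in WT (SD, n = 3 each), and limma gave 0.34 ± 0.10 (SE, adjusted p = 0.0864). The only Rpl28 neighbours tested within 100 kb were 3 genes at E11.5 and 4 at E10.5, with 0 called. In E11.5 FL all 3 had every mutant library above every WT library (median log2 difference 0.34), as 11.7% of all genes did. In E11.5 HL 1 of the 3 had them below (median -0.03), as 8.39% did. Cox6b2, 39.8 kb away and the nearest tested gene on the lower side without overlap, had log2 differences of 0.10 ± 0.21 in E11.5 HL and 0.76 ± 0.21 in E11.5 FL (SE, limma adjusted p = 0.924 and 0.0808).

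Tbcb was lower in mutant buds at both stages. In E11.5 HL it was at 17.0, 13.8 and 22.9 rescaled TPM in mutant libraries and at 34.6, 33.0 and 38.7 in WT libraries. FL libraries of E11.5 were at 14.5, 17.1 and 27.1 in mutant and 31.0, 31.1 and 35.6 in WT libraries. Library 3 was the highest mutant library in both limbs, and on rescaled TPM still lay below every WT library of its limb. On the deposited scale library 3 of E11.5 mutant FL, at 33.1 TPM, lay above the E11.5 WT FL libraries (21.6 to 28.1). After rescaling, the E11.5 log2 differences were -0.96 ± 0.21 in HL and -0.74 ± 0.21 in FL (SE), and -1.14 and -0.99 without the Xist-positive libraries. At E10.5 it was at 18.1, 14.3 and 20.8 in mutant HL and 21.2, 26.6 and 29.3 in WT HL, and the log2 difference was -0.51 ± 0.17 (SE). In E10.5 FL it was at 18.7, 16.4 and 21.3 in mutant and 27.2, 22.2 and 25.3 in WT, with a difference of -0.39 ± 0.17 (SE).

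The partners of TBCB in tubulin folding are other cofactors and the small GTPase ARL2. Of 6 others tested, 2 were called lower in E11.5 FL mutants and 0 were called in the other 3 comparisons. E11.5 FL held 192 calls among 10978 genes tested (1.75%), 140 of them lower. No result for the partners as a set is read from the 2 calls. Tbce, the cofactor that works with TBCB on alpha-tubulin, averaged 12.2 ± 1.63 rescaled TPM in E11.5 mutant FL and 20.6 ± 2.07 in E11.5 WT FL (SD, n = 3 each; limma, -0.70 ± 0.12 SE, adjusted p = 0.019). Arl2 averaged 5.08 ± 0.902 in E11.5 mutant FL and 8.28 ± 0.158 in E11.5 WT FL (SD, n = 3 each; limma, -0.60 ± 0.11 SE, adjusted p = 0.0209). These calls depended on the processing: Tbce kept its call in 7 of 14 alternatives and Arl2 in 8 of 14, and on the deposited scale the differences were -0.22 and -0.16 (adjusted p = 0.261 and 0.499). Polr2i, an RNA polymerase II subunit gene, overlaps Tbcb on the opposite strand. Matched on either strand, 19.2% of the 50-base words of Tbcb occur in it. Polr2i averaged 19.0 ± 0.371 in E11.5 mutant HL and 23.4 ± 2.56 in E11.5 WT HL (SD, n = 3 each). In E11.5 FL it averaged 20.7 ± 0.996 in mutant and 19.7 ± 2.75 in WT (SD, n = 3 each). Neither difference passed (limma, adjusted p = 0.754 in HL and 0.669 in FL).

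Capns1 was lower in mutant buds in every stage and limb, and at E11.5 the mutant libraries differed widely among themselves. It was at 10.2, 8.74 and 19.2 rescaled TPM in E11.5 mutant HL and 25.7, 28.9 and 28.8 in E11.5 WT HL. In FL it was at 10.6, 12.6 and 19.2 in mutant libraries and 25.6, 30.3 and 32.2 in WT libraries. Library 3 was again the high mutant library in both limbs, at 2.03 (HL) and 1.65 (FL) times the mean of libraries 1 and 2, and it was the Xist-positive one. The log2 differences were -1.13 ± 0.25 in HL and -1.02 ± 0.25 in FL (SE), and -1.44 and -1.25 without the Xist-positive libraries. Of the other calpain genes and the inhibitor gene Cast, 7 were tested at E11.5 and 6 at E10.5, and limma called 0 in any comparison, with 3 at an unadjusted p under 0.05, all in E11.5 FL. Capn6, the highest of them, averaged 56.9 ± 4.31 in E11.5 mutant HL and 64.4 ± 10.45 in E11.5 WT HL (SD, n = 3 each).

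At E10.5 the Capns1 libraries of a group lay close together. It was at 13.0, 13.95 and 12.6 rescaled TPM in E10.5 mutant HL and 19.9, 21.7 and 20.4 in E10.5 WT HL. In FL it was at 14.7, 14.6 and 14.3 in mutant libraries and 25.5, 23.3 and 24.4 in WT libraries. Mutant levels were 63.8% (HL) and 59.5% (FL) of WT levels, with no overlap. The log2 differences were -0.60 ± 0.09 and -0.71 ± 0.09 (SE), and leaving out any one library kept them between -0.64 and -0.58 in HL and between -0.75 and -0.68 in FL. The summed level of 7 erythroid markers was 4514 to 5499 in E10.5 mutant FL against 2048 to 2894 in E10.5 WT FL, and 1914 to 2837 in E10.5 mutant HL against 1402 to 3531 in E10.5 WT HL; its part in the E10.5 values was not tested.

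Alkbh6, whose relatives remove methyl groups from DNA or RNA, was lower in mutants by less. It was at 4.33, 5.49 and 5.34 rescaled TPM in E11.5 mutant HL and 7.30, 6.38 and 7.43 in E11.5 WT HL. Among E11.5 FL libraries it was at 5.64, 5.35 and 6.22 in mutant and 7.27, 8.12 and 7.92 in WT libraries. The groups stood apart, and the log2 differences were -0.40 ± 0.09 in HL and -0.37 ± 0.09 in FL (SE); on the deposited scale the FL difference was 0.07. At E10.5 it was at 7.74, 8.04 and 6.60 in mutant HL and 8.68, 9.75 and 9.59 in WT HL, a difference of -0.29 ± 0.14 (SE). In E10.5 FL it was at 8.999, 8.22 and 6.86 in mutant and 10.6, 7.64 and 9.40 in WT libraries, which overlapped, and the difference was -0.18 ± 0.14 (SE). Of 8 other AlkB homologs, which include the RNA demethylase gene Fto, limma called 0 in any mutant against WT comparison, with 1, 3, 0 and 1 at an unadjusted p under 0.05 in E11.5 HL, E11.5 FL, E10.5 HL and E10.5 FL. Alkbh1, the highest of them, averaged 14.1 ± 1.29 in E11.5 mutant HL and 15.4 ± 0.508 in E11.5 WT HL (SD, n = 3 each).

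Zfp420, whose human counterpart is known as a repressor of p53 activity, was low throughout. It was at 1.21, 1.05 and 1.11 rescaled TPM in E11.5 mutant HL and 1.63, 1.63 and 1.88 in E11.5 WT HL. FL values at E11.5 were 1.46, 0.971 and 1.13 in mutant and 1.69, 1.86 and 1.60 in WT libraries. The groups stood apart by little, with log2 differences of -0.33 ± 0.09 in HL and -0.30 ± 0.09 in FL (SE), and at this level the + 1 in the transform holds the differences down. At E10.5 the values were 1.11 to 1.44 in mutant HL and 1.198 to 1.999 in WT HL, and 1.37 to 1.82 in mutant FL and 1.87 to 1.99 in WT FL, with differences of -0.13 ± 0.15 in HL and -0.15 ± 0.15 in FL (SE). Of the other Zfp genes of chromosome 7, 61 were tested at E11.5 and 72 at E10.5, and limma called 0, with 5, 13, 0 and 4 at an unadjusted p under 0.05 in E11.5 HL, E11.5 FL, E10.5 HL and E10.5 FL. Their median log2 difference was -0.05 in E11.5 HL and -0.06 in E11.5 FL, beside -0.03 and -0.02 over all genes tested.

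Trim12c, near the filter at E10.5, separated the genotypes at E11.5. It was at 2.11, 2.33 and 1.87 rescaled TPM in E11.5 mutant HL and 2.81, 2.63 and 3.79 in E11.5 WT HL. In E11.5 FL it was at 1.82, 2.09 and 1.81 in mutant and 3.28, 3.60 and 3.26 in WT libraries. The log2 differences were -0.36 ± 0.10 in HL and -0.56 ± 0.10 in FL (SE). At E10.5 its values were 0.415 to 1.24 in mutant HL and 0.435 to 0.705 in WT HL, and 0.562 to 1.35 in mutant FL and 0.0142 to 1.31 in WT FL, with overlap in both limbs and differences of 0.14 ± 0.32 and 0.24 ± 0.32 (SE). At E10.5 it passed the filter through 3 libraries, all numbered 3, of mutant HL (1.24), mutant FL (1.35) and WT FL (1.31). Of its 50-base words, matched on either strand, 33.7% also occur in transcripts of other genes, 24.2% in Trim5, so its level could hold reads of copies. Of the other genes of the Trim12 and Trim30 cluster on the fixed list, 1 at E11.5 and 2 at E10.5 passed the filter, and 0 were called by limma, nor was either under 0.05 before adjustment.

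Slc1a5 was the one gene of the 7 that was higher in mutants at E11.5. It was at 3.75, 3.64 and 3.71 rescaled TPM in E11.5 mutant HL and 2.13, 2.72 and 2.16 in E11.5 WT HL. The E11.5 FL values were 4.01, 3.60 and 3.38 in mutant and 2.13, 1.77 and 1.88 in WT libraries. Mutant levels were 158.2% (HL) and 190.2% (FL) of WT levels, and the log2 differences were 0.48 ± 0.09 and 0.65 ± 0.09 (SE). At E10.5 the libraries of a group differed more than the genotypes: 8.94, 7.62 and 3.57 in mutant HL and 12.04, 5.84 and 2.27 in WT HL, and 4.17, 4.82 and 2.89 in mutant FL and 4.15, 4.18 and 1.14 in WT FL. The differences were 0.16 ± 0.50 in HL and 0.36 ± 0.50 in FL (SE). Library 3 was the low one in each of the 4 groups, at 0.254 to 0.644 times the mean of libraries 1 and 2.

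**Figure D3:**
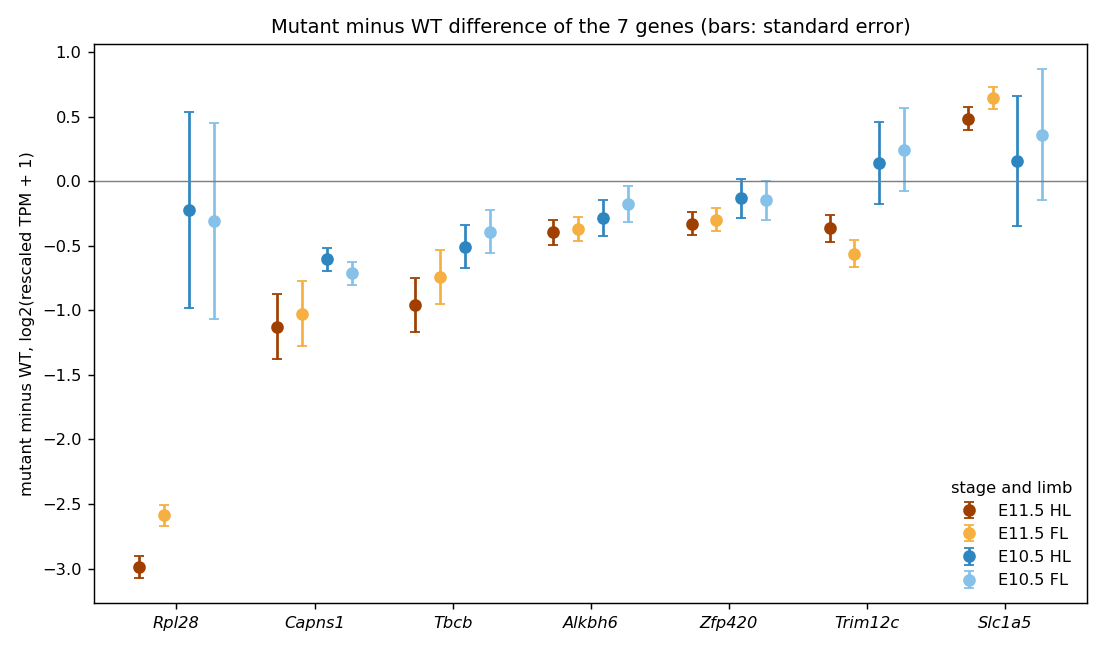
Mutant minus WT difference of the 7 genes on log2(rescaled TPM + 1), with bars of 1 standard error, for each stage and limb. Rpl28 at E11.5 lies lowest, at -2.98 and -2.59, and Slc1a5 lies above 0 at E11.5, at 0.48 and 0.65.

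The genes around the 7 were read in the same fits. Within 100 kb of a listed gene, 1 other gene was called in any mutant against WT comparison: Sdhaf1, an assembly factor of the mitochondrial succinate dehydrogenase, which lies beside Alkbh6 at 30321406 to 30323895. It averaged 2.27 ± 0.0798 rescaled TPM in E11.5 mutant FL and 3.23 ± 0.177 in E11.5 WT FL (SD, n = 3 each; limma, -0.35 ± 0.08 SE, adjusted p = 0.0498). The call held in 1 of 14 alternatives, and on the deposited scale the difference was 0.01. In E11.5 HL it averaged 2.18 ± 0.24 in mutant and 2.79 ± 0.184 in WT and did not pass (SD, n = 3 each; limma, adjusted p = 0.754). Within 500 kb of Capns1, 31 genes other than Capns1, Tbcb, Alkbh6 and Zfp420 were tested in each comparison, and 1 in all was called. Their median log2 differences were -0.09 in E11.5 HL, -0.05 in E11.5 FL, for E10.5 HL -0.08 and for E10.5 FL -0.05. Within 100 kb, in E11.5 HL, all 7 other genes tested around Tbcb were below 0 (median -0.24, 4 with every mutant library below every WT library). So were all 6 around Alkbh6 (median -0.22, 3 separated) and 6 of 7 around Capns1 (median -0.20, 3 separated). Around Zfp420, 3 of 7 were below 0 (median 0.01, 1 separated below and 2 above). Over all 10978 genes tested there, 4490 were above 0, 8.39% were separated below and 3.18% above. The windows of Tbcb, Alkbh6 and Capns1 share genes, and none of the genes in the 4 windows was called in E11.5 HL. The 100 kb medians in E11.5 FL were -0.11 (Tbcb), -0.01 (Alkbh6) and -0.05 (Capns1). In E10.5 FL they were -0.29 for Tbcb and for Alkbh6 and -0.16 for Capns1, and in E10.5 HL -0.11, 0.01 and -0.15.

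The nearest tested neighbours of the 7 genes were described with the same fits. Zfp146, 17.2 kb from Capns1, averaged 23.9 ± 1.38 in E11.5 mutant HL and 30.4 ± 2.09 in E11.5 WT HL (SD, n = 3 each), a log2 difference of -0.32 ± 0.09 (SE; limma, adjusted p = 0.754). Wdr62, 7.87 kb from Tbcb, had log2 differences of -0.34 ± 0.11 in E11.5 HL and -0.11 ± 0.11 in E11.5 FL (SE; limma, adjusted p = 0.754 and 0.571). Clip3 and Syne4, 0.35 kb and 0.503 kb from Alkbh6, had -0.20 ± 0.20 and -0.09 ± 0.14 in E11.5 HL and 0.12 ± 0.20 and -0.28 ± 0.14 in E11.5 FL (SE; none called). At E10.5 Clip3 and Syne4 were at -0.52 ± 0.21 and -0.45 ± 0.32 in FL, below the -0.18 of Alkbh6 there, and at -0.28 ± 0.21 and 0.31 ± 0.32 in HL, beside -0.29 for Alkbh6 (SE; none called). Ap2s1, 32.1 kb from Slc1a5, had -0.04 ± 0.09 in E11.5 HL and 0.09 ± 0.09 in E11.5 FL (SE; not called). In E11.5 FL 1 of 7 genes within 100 kb of Slc1a5 (median 0.24) and 1 of 15 within 500 kb (median 0.19) were below 0. Of the 15, 5 were separated above and 1 below. In E11.5 HL 5 of 7 (median -0.02) and 11 of 15 (median -0.05) were below 0. None of these genes was called. Zfp940 and Zfp27, beside Zfp420, had 0.29 ± 0.14 and 0.01 ± 0.09 in E11.5 HL and -0.06 ± 0.14 and -0.004 ± 0.09 in E11.5 FL (SE; none called). No other gene within 100 kb of Trim12c passed the filter.

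**Figure D4:**
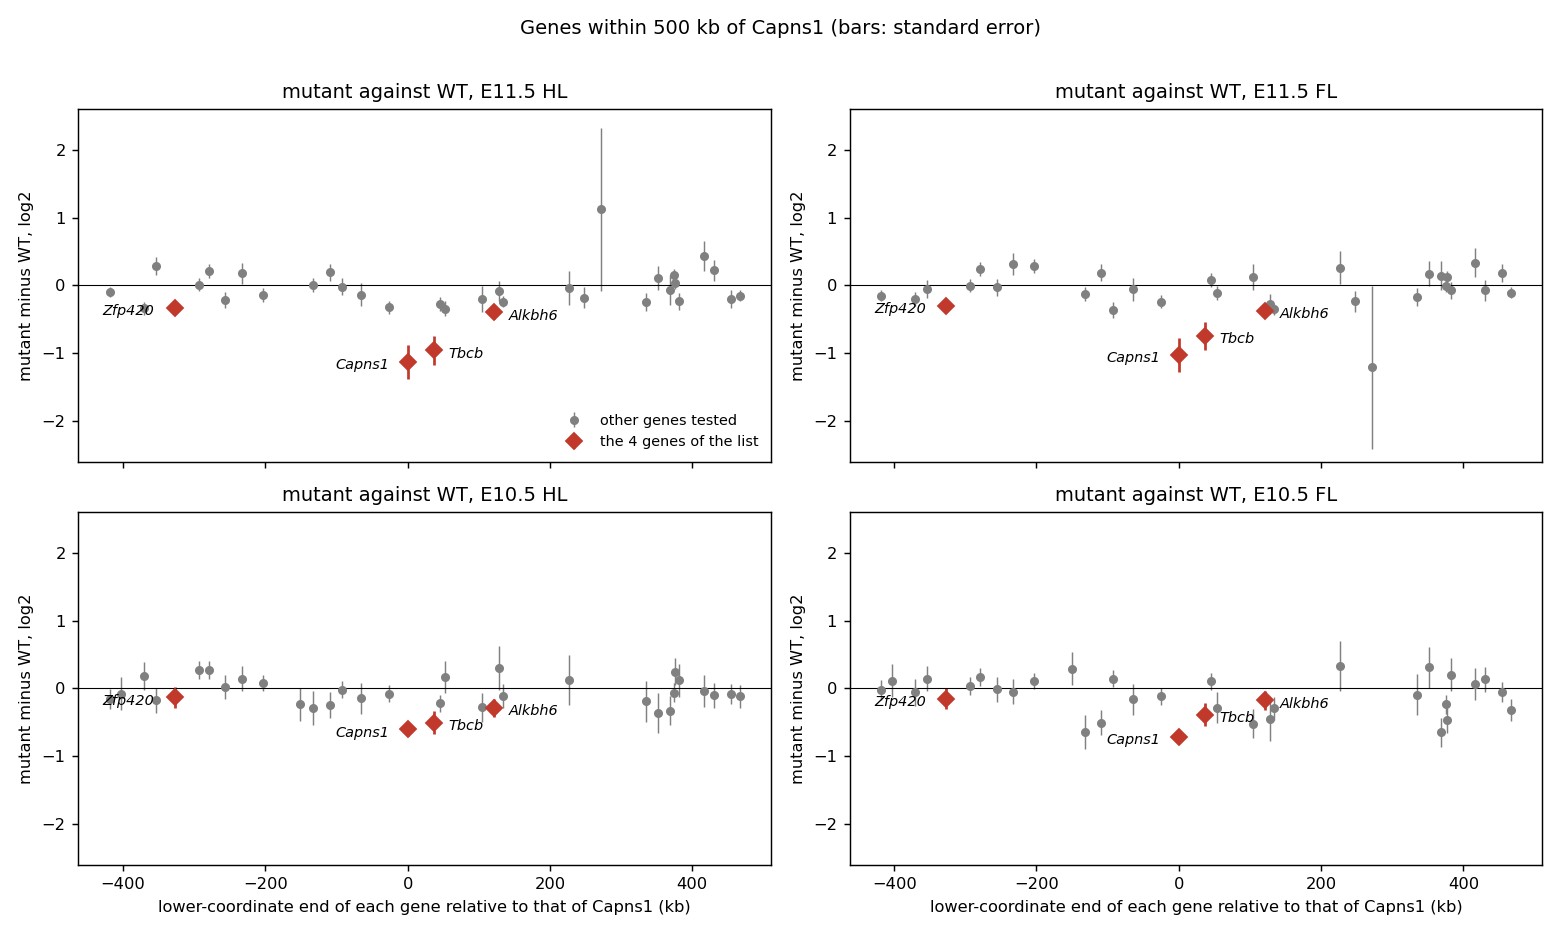
Mutant minus WT difference (log2, bars of 1 standard error) of genes tested within 500 kb of Capns1, against distance along chromosome 7 in kb, for each stage and limb. Diamonds are Zfp420, Capns1, Tbcb and Alkbh6; grey dots are the 31 other genes tested, of which 1 was called in E11.5 FL.

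Over the rest of chromosome 7, without the 7 genes, 13 of 747 genes tested were called in E11.5 FL (1.74%; 5 higher and 8 lower), beside 1.75% over all genes. In the other comparisons limma called 0 of them, with 60 of 747 at an unadjusted p under 0.05 in E11.5 HL, and 14 and 44 of 798 in E10.5 HL and FL. The 5 with the lowest adjusted p were Aen (0.92 ± 0.12, adjusted p = 0.00528), a p53-induced nuclease gene, Sox6 (-0.91 ± 0.12, 0.00578), a chondrocyte transcription factor gene, Bola2 (0.53 ± 0.09, 0.0155), Bax (0.66 ± 0.11, 0.0187), a pro-apoptotic gene, and Polr2l (0.37 ± 0.07, 0.0266), all as log2 difference with SE by limma. Aen kept its call in 14 of 14 alternatives, Sox6 in 12, Bola2 and Bax in 9 each and Polr2l in 5, and none of the 5 changed direction on the deposited scale. The 13 called genes lay in 10 of 15 bins of 10 Mb, with at most 2 in a bin.

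Co-variation between libraries was read within a genotype, where the difference that chose the genes does not enter. Values were centred on the mean of their stage and limb, correlations are given as a description, and libraries of FL and HL may share embryos. Capns1 and Tbcb, 25.3 kb apart, correlated with Pearson's r of 0.78 over the 12 mutant libraries and 0.47 over the 12 WT libraries (Spearman's rho 0.59 and 0.51). Tbcb and Alkbh6 gave r of -0.09 in mutants and 0.72 in WT. Capns1 and Alkbh6 gave 0.32 and 0.43, and Capns1 and Rpl28 gave -0.07 and 0.04. Without the E11.5 libraries numbered 3, in which both genes were high among mutants, Capns1 and Tbcb gave 0.11 over 10 mutant libraries and 0.29 over 10 WT libraries, so the value in mutants rests on those libraries.

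Rpl28, Slc1a5 and Trim12c also correlated when all libraries of a genotype were used. Rpl28 and Slc1a5 varied against each other, with r of -0.88 in mutants and -0.95 in WT (rho -0.89 and -0.78). Rpl28 and Trim12c gave 0.89 in mutants and 0.52 in WT, and Trim12c and Slc1a5 gave -0.90 and -0.57. The values with Trim12c rest on the E10.5 libraries numbered 3, through which alone it passed the filter at E10.5. The value of Rpl28 and Slc1a5 rests on them in part. In those libraries Rpl28 and Trim12c were above and Slc1a5 below libraries 1 and 2 in all 4 groups. Without them, over 10 libraries a genotype, Rpl28 and Slc1a5 gave -0.62 in mutants and -0.70 in WT, Rpl28 and Trim12c gave -0.11 and -0.52, and Trim12c and Slc1a5 gave -0.19 and -0.16. The opposite variation of Rpl28 and Slc1a5 was thus smaller and of the same sign, and that of Rpl28 and Trim12c turned. Trim12c stood there at 1.496 to 3.23 times the mean of libraries 1 and 2. Only 0.119% of genes tested exceeded 2-fold in all 4 groups, as Rpl28 did, and of the 6 annotated as protein-coding 4 are patterning genes of the distal or posterior limb bud (Shh, Hoxa13, Hoxd12 and Hoxd13) and the others are Rpl28 and Hddc3, also of chromosome 7. Under 0.5 times the mean of libraries 1 and 2 in all 4 groups lay 0.238% of genes, 28 in number with 13 annotated as protein-coding. What sets library 3 apart was not tested.

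**Figure D5:**
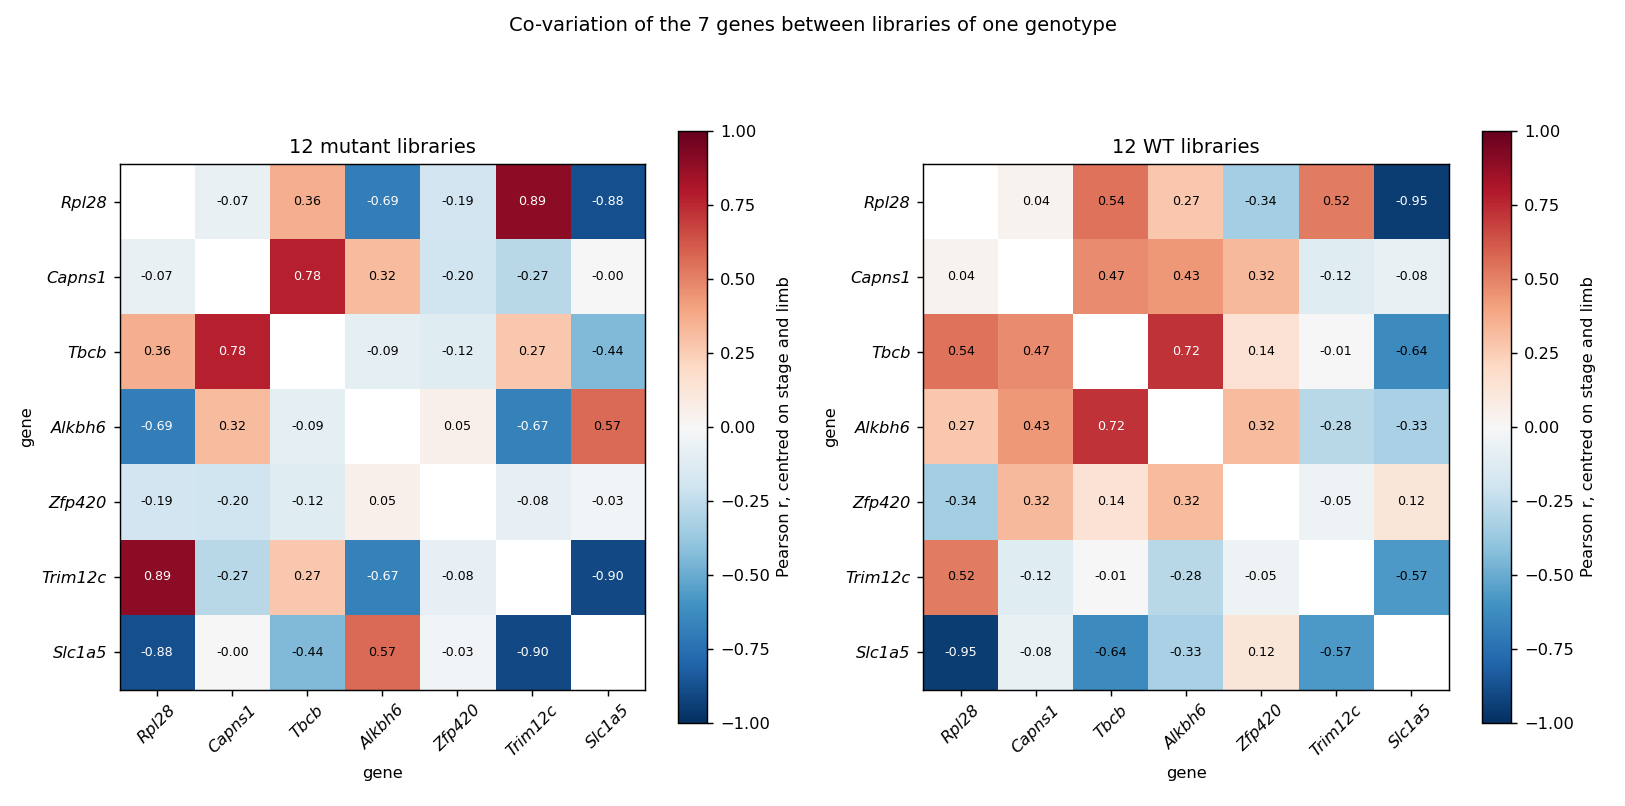
Pearson's r between each pair of the 7 genes over the 12 mutant libraries (left) and the 12 WT libraries (right), centred on the mean of each stage and limb; colour runs from -1 (blue) to 1 (red). Rpl28 and Slc1a5 are at -0.88 and -0.95, and Capns1 and Tbcb at 0.78 and 0.47.

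Among E11.5 mutants the high value of library 3 was shared by Capns1 and Tbcb and by few genes. It exceeded 1.3 times the mean of libraries 1 and 2 in both limbs in 135 of 10978 genes (1.23%). On chromosome 7 lie 9 of the 135, Capns1 and Tbcb among them. Chromosome 7 holds 754 of the 10978 genes tested, so 9 of 135 is near its share of all genes. Pop4, a subunit gene of ribonuclease P, was one of the 9, and it averaged 14.8 ± 4.15 rescaled TPM in E11.5 mutant HL and 18.3 ± 1.5 in E11.5 WT HL (SD, n = 3 each). In E11.5 FL Pop4 averaged 14.5 ± 4.24 in mutant and 17.9 ± 0.44 in WT (SD, n = 3 each), and it was not called (limma, adjusted p = 0.765 in HL and 0.346 in FL). Over all 24 libraries, where the genotype difference that chose the genes enters, the genes most like Capns1 were Tbcb (r = 0.93), Alkbh6 (0.81) and Pop4 (0.77). Of the 100 genes most like each, 14 (Rpl28), 11 (Capns1), 13 (Tbcb), 9 (Alkbh6), 7 (Zfp420), 4 (Trim12c) and 6 (Slc1a5) lie on chromosome 7. Listed genes are among those counted. The 100 were drawn from the 12118 genes tested over all 24 libraries, whose chromosome 7 share is not reported here. In the smaller E10.5 set chromosome 7 holds 805 of the 11771 genes tested. The genes most like Rpl28 were Btg1 (0.82), Tmem57 (0.80) and H1f0 (0.77), and Tbcb had Capns1 (0.93), Sdhaf1 (0.78) and Rpl28 (0.77). Alkbh6 had Capns1 (0.81), Tbcb (0.75) and Hacl1 (0.71). Zfp420 was most like Sorbs2 (0.82), Pfkfb2 (0.81) and Mir99ahg (0.80), Trim12c most like Cdkn3 (0.85), Fam114a2 (0.85) and Fra10ac1 (0.84), and Slc1a5 most like Heatr1 (0.84), Prtg (0.83) and Gm3558 (0.83).

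Limb type, which did not choose the genes, was tested as the mean HL minus FL difference of both genotypes. limma called 0 of the 7 at either stage, with Capns1 and Zfp420 at an unadjusted p under 0.05 at E10.5 and 0 at E11.5, while 49 of 10978 genes were called at E11.5 (0.446%; 18 higher and 31 lower in HL, and 12 and 109 on the deposited scale) and 82 of 11771 at E10.5 (0.697%; 28 higher and 54 lower, and 28 and 10 on the deposited scale). At E11.5 the log2 differences ran from -0.13 ± 0.07 (Alkbh6) to 0.10 ± 0.06 (Slc1a5), with limma adjusted p between 0.559 and 0.996. At E10.5 they ran from -0.25 ± 0.11 (Zfp420) to 0.70 ± 0.36 (Slc1a5), with adjusted p between 0.231 and 0.967. Capns1 at E10.5 had the lowest adjusted p, 0.231, for a difference of -0.18 ± 0.06 (SE), and on the deposited scale the difference was 0.22. There were 6 libraries per limb in each test, and a p that misses the threshold does not show that the limbs are alike.

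The stages were compared within each genotype, over the mean of FL and HL, with all 24 libraries rescaled together. Reads of the E10.5 libraries were trimmed by 3 nt per the labels and no trimming is stated for E11.5, so stage and trimming cannot be told apart. The mutant and WT libraries compared here also entered the choice of the genes, the E11.5 mutant libraries among them. For the 7 genes the p-values between stages are therefore not independent of that choice and are given as a description. In mutants 6649 of 12118 genes were called (54.9%; 3507 higher and 3142 lower at E11.5, and 552 and 3666 on the deposited scale). In WT 7017 were called (57.9%; 4100 higher and 2917 lower, and 468 and 5141 on the deposited scale). Of the 7 genes, 3 were called in mutants and 4 in WT, shares near that background.

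Rpl28 fell between the stages in mutants, by 2.74 ± 0.41 on the log2 scale (SE; limma, adjusted p = 3.19e-05), and in WT its difference was -0.20 ± 0.41 (SE; adjusted p = 0.692). Without the E10.5 libraries numbered 3 the values were -2.25 in mutants and 0.52 in WT. Those libraries were left out after their high Rpl28 values were seen. Leaving them out lowers the E10.5 level by construction, so nothing is read from these values. Alkbh6 fell by 0.45 ± 0.08 in mutants and by 0.29 ± 0.08 in WT (SE; limma, adjusted p = 0.000196 and 0.00591). Trim12c rose by 0.75 ± 0.16 in mutants and by 1.41 ± 0.16 in WT (SE; limma, adjusted p = 0.000741 and 1.33e-06). Tbcb rose in WT by 0.42 ± 0.14 (SE; limma, adjusted p = 0.0151), and its difference was 0.01 ± 0.14 in mutants (adjusted p = 0.97); on the deposited scale both were below 0, at -0.13 in WT and -0.28 in mutants. Slc1a5 fell by 0.70 ± 0.27 in WT (SE; limma, adjusted p = 0.0324), a call lost in 11 of the 20 alternatives, 8 of them without 1 library, with adjusted p up to 0.109 without library 1 of E10.5 WT HL, and was at -0.35 ± 0.27 in mutants (adjusted p = 0.269). Capns1 (-0.10 ± 0.14 in mutants and 0.33 ± 0.14 in WT; limma, adjusted p = 0.559 and 0.0515) and Zfp420 (-0.18 ± 0.08 and 0.02 ± 0.08; adjusted p = 0.0681 and 0.871) did not pass. Without the Xist-positive libraries, which leaves 1 library in each E10.5 mutant group, Capns1 was at -0.41 in mutants. It was called in mutants without library 3 of E11.5 mutant HL alone (-0.26, limma adjusted p = 0.0457). Zfp420 was called in mutants without library 3 of E10.5 mutant FL (-0.22, adjusted p = 0.037) or library 1 of E11.5 mutant FL (-0.23, adjusted p = 0.0319) and on the deposited scale (-0.36, adjusted p = 0.0335), where it was also called in WT, below 0 (-0.33, adjusted p = 0.0419). Slc1a5 was at -0.60 in mutants without the E10.5 libraries numbered 3, which were low in Slc1a5, and nothing is read from that value either. Capns1 in WT was called with only the compared libraries (0.33, limma adjusted p = 0.00422), without the Xist-positive libraries (0.33, 0.00266), with a replicate block (0.33, 0.0374) and without library 1 of E11.5 WT FL (0.38, 0.0419), whereas on the deposited scale it was at -0.22 (0.46). Whether the stage difference itself differs between genotypes was not tested, since that difference is the contrast that chose the genes.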

How the data were processed

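Total RNA of limb buds was profiled in 24 libraries, grouped by the labels' stage, limb and genotype. The authors deposited TPM for each gene symbol, and these sum to 1000000 in every library; alignment used HISAT2 on mm10 per the submitters' processing notes, and no source used here gives the quantifier, the annotation or the strand counted. Depth cannot be read from TPM, and how precise low values are is therefore not known. Per the labels, 3 nt were trimmed from E10.5 reads.

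Libraries were rescaled to share one median log2 value over genes at 5 TPM or more in every library fitted together. Levels are on the scale of all 24 libraries. Fits were made with limma 3.58.1 (R 4.3.3), with a trend on mean level, to log2(rescaled TPM + 1) of genes at 1 or more in 3 or more libraries, in the 12 libraries of a stage, or all 24 for stages. All p-values are two-sided and were adjusted by Benjamini-Hochberg over all genes tested, at a threshold of 0.05, and the fit was tested on simulated data. GENCODE M21 (GRCm38) matched 36217 of 38019 symbols.

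The genes, families and naming rule were chosen with earlier results of these data known. Named beside the 7 genes were Rnu11, the 3 most like each, the nearest tested gene on each side (some are not reported here), called genes within 100 kb, the 5 other chromosome 7 calls with the lowest adjusted p, and called or highest family members. Ube2s, Polr2i and the genes high in library 3 were named after their values were seen.

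Replicate numbers were checked by correlating residuals of same-numbered libraries. For E10.5 FL and HL they lay between 0.105 and 0.196 in mutants and between 0.067 and 0.285 in WT. There 5 of 6 mutant and 6 of 6 WT libraries correlated best with their own number. For E11.5 FL and HL 4 of 6 did so in mutants and 0 of 6 in WT. Between genotypes at E10.5, 5 of 6 did so for WT FL and mutant FL and 4 of 6 for WT HL and mutant HL. The counts were 4 of 6 for WT HL and mutant FL and 2 of 6 for WT FL and mutant HL. At E11.5 the counts in that order were 2, 0, 2 and 4 of 6. Xist-positive libraries had the same numbers in FL and HL of each stage. Same-numbered libraries may thus share a source, and the main fits treat all libraries as independent. Alternatives were the deposited scale, nuclear protein-coding genes only, a pseudocount of 0.1, no filter, other sets of libraries in the fit, a replicate block, leaving out the Xist-positive libraries or each library in turn and, added after seeing the data, leaving out the libraries numbered 3.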

Additional observations from a re-analysis of the deposited data

How the results depend on the processing

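Mutant against WT, genes called moved as follows. E11.5 HL (2): 4 on the deposited scale, 1 with protein-coding genes only, 1 with a pseudocount of 0.1, 0 with all 24 libraries, 5 without Xist-positive libraries and 1 to 4 without single libraries. E11.5 FL (192): 3733 on the deposited scale, 56 with no filter, 38 with only the compared libraries, 65 with all 24, 83 without Xist-positive libraries and 27 to 403 without single libraries. E10.5 HL (1): 0 with protein-coding genes, with no filter and without the libraries numbered 3, 4 with only the compared libraries, 3 with all 24, and 0 to 3 without single libraries. E10.5 FL (3): 0 with protein-coding genes, with a pseudocount of 0.1 and without the libraries numbered 3, 11 with no filter and with all 24, 1 with only the compared libraries, and 0 to 1 without single libraries. Leaving out the Xist-positive libraries keeps 1 library in each E10.5 mutant group, so no count of calls is given for such fits.

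With the replicate block, counts were 3 (E11.5 HL), 101 (E11.5 FL), 0 (E10.5 HL) and 0 (E10.5 FL), and 72 (E11.5) and 98 (E10.5) for limbs; among the limb and stage tests of the 7 genes it added Capns1 in WT (adjusted p = 0.0374) and changed no other call. In E11.5 FL it lost the calls of Sdhaf1 (adjusted p = 0.092) and Polr2l (0.0625).

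HL against FL, calls at E11.5 (49) were 121 on the deposited scale, 119 with protein-coding genes, 31 with no filter, 161 without Xist-positive libraries and 27 to 149 without single libraries. At E10.5 (82) they were 38 on the deposited scale, 33 with no filter, 542 with all 24, 6 without Xist-positive libraries, 40 without the libraries numbered 3 and 20 to 115 without single libraries. Between stages, mutant calls (6649) were 4218 on the deposited scale, 3763 without Xist-positive libraries and 5900 to 6568 without single libraries.

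Directions turned in values, most of them near 0. On the deposited scale HL minus FL was -0.19 (Tbcb) and -0.076 (Slc1a5) at E11.5, and 0.22 (Capns1), 0.38 (Tbcb), 0.35 (Alkbh6) and 0.012 (Zfp420) at E10.5; E11.5 minus E10.5 was -0.28 (Tbcb) in mutants and -0.22 (Capns1), -0.13 (Tbcb) and -0.33 (Zfp420) in WT; and Sdhaf1 in E11.5 FL was 0.0082. HL minus FL at E11.5 was also 0.0059 (Zfp420) and 0.028 (Trim12c) with protein-coding genes, and for Trim12c 0.00025 with a pseudocount of 0.1 and 0.011 without Xist-positive libraries; at E10.5 Alkbh6 was 0.0057 without them. Without the libraries numbered 3, WT stage differences were 0.52 (Rpl28) and -0.032 (Zfp420).

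Leaving out single libraries, HL minus FL ran from -0.078 to 0.14 (Tbcb), -0.045 to 0.026 (Zfp420) and -0.061 to 0.032 (Trim12c) at E11.5, and from -0.31 to 0.42 (Rpl28), -0.089 to 0.042 (Tbcb) and -0.093 to 0.018 (Alkbh6) at E10.5. Stage differences ran from -0.26 to 0.0049 (Capns1) and -0.12 to 0.10 (Tbcb) in mutants, and from -0.46 to 0.18 (Rpl28) and -0.026 to 0.087 (Zfp420) in WT. The causes were not tested. Trim12c gave a value at E10.5 in 9 (FL) and 10 (HL) of 15 alternatives and fell under the filter in the others.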
